A study of Mus musculus with 6 samples.

Results

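The genes described here are 10 receptors for colony-stimulating factors and related growth and lineage signals, measured in dendritic cells sorted from mouse spleen. They are the receptor tyrosine kinases Flt3, Kit and Csf1r, the cytokine receptor chains Csf2ra, Csf2rb, Csf2rb2, Csf3r, Il7r and Il21r, and Ltbr of the tumour necrosis factor receptor family. They were chosen by name, as growth and lineage receptors that act on dendritic and myeloid cells, with earlier results of these data known. All 10 were found among 19938 genes measured, each by a single probe set that carries no other gene symbol. RNA came from 3 populations of wild-type (WT) spleen cells, with 2 arrays for each: CD24+CD172a+ type 2 conventional dendritic cells (cDC2), CD24-CD172a+ cDC2, and CD24+ type 1 conventional dendritic cells (cDC1). No population was treated or carried a mutation, and the labels give no age, sex or strain. CD24 and CD172a (Sirpa) are surface proteins used for the sort. Whether the arrays of a population stem from different mice is not stated, so their spread may be technical. In sorted bulk RNA, fewer cells of a type and less RNA per cell cannot be told apart.

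Conventional dendritic cells arise from bone marrow precursors that carry FLT3, and its ligand FLT3L drives their output into spleen. KIT binds stem cell factor and marks early progenitors and mast cells. CSF1R binds M-CSF and IL-34 and is the receptor on which macrophages depend. GM-CSF signals through a specific alpha chain and a beta chain that IL-3 and IL-5 receptors also use, and the mouse has a second beta chain, of Csf2rb2, that serves IL-3. The G-CSF receptor of Csf3r is best known from neutrophils. IL7R pairs with the common gamma chain to bind IL-7 and with CRLF2 to bind TSLP, and IL21R pairs with the common gamma chain. The lymphotoxin beta receptor (LTBR) signals to non-canonical NF-kappaB and is needed for the upkeep of splenic cDC2.

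The levels given are log2 of the deposited intensities. Differences are log2 differences ± their standard error (SE), and a gene is called where its adjusted p from limma, over all 19938 genes, is under 0.05. The replicate arrays of a population correlated at 0.992 to 0.993 across genes, and array medians ran from 29.5 to 30.6 on the linear scale. The arrays were checked against markers of the labelled cells. The 8 markers of all conventional dendritic cells summed to 20145 to 20448 in CD24+CD172a+ cDC2, 19989 to 20618 in CD24-CD172a+ cDC2 and 19309 to 19583 in cDC1, on the linear scale. Of 11 cDC1 markers, 11 were lower in CD24+CD172a+ cDC2 than in cDC1 and 10 were lower in CD24-CD172a+ cDC2 than in cDC1. Of 10 cDC2 markers, 8 were higher and 1 lower in CD24+CD172a+ cDC2 than in cDC1, and 9 were higher and 1 lower in CD24-CD172a+ cDC2 than in cDC1. The lower one was Clec12a in both, named after its values were seen. The cDC2 markers include Sirpa, the gene of the sort protein CD172a, so that gene is no independent check. Of all genes, 7.11% were higher and 6.52% lower in CD24+CD172a+ cDC2 than in cDC1, and 6.83% and 8.91% in CD24-CD172a+ cDC2. A background level of 4.68 was set at the 95th percentile of the means of 1194 odorant and vomeronasal receptor genes, which are known mainly from sensory tissue. No receptor had a population mean under it. In cDC1, however, the means of Csf1r, Csf3r and Il7r exceeded it by only 0.096, 0.042 and 0.0053, so the differences of these genes from cDC1 may be lower bounds.

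Both cDC2 populations had clearly more Csf1r, Il7r and Il21r RNA than cDC1, and somewhat more Csf3r RNA. Kit had its highest level in CD24+CD172a+ cDC2, and Flt3 its lowest in CD24-CD172a+ cDC2. Between CD24+CD172a+ and CD24-CD172a+ cDC2, 0 of the 10 receptors were called by limma, where 1.46% of all genes were (0.808% higher and 0.652% lower). That 161 genes were higher and 130 lower turned to 119 and 137 when the arrays were quantile-normalised again, and to 126 and 160 with cyclic loess. In this comparison the median difference over the 10 was -0.07, against -0.01 over all genes. Between CD24+CD172a+ cDC2 and cDC1, 6 of 10 receptors were called, where 13.6% of all genes were. Of these, 5 were higher (Csf1r, Il21r, Il7r, Kit and Csf3r, background 7.11%) and 1 was lower (Csf2ra, background 6.52%). The median was 0.27, against -0.03 over all genes. Between CD24-CD172a+ cDC2 and cDC1, 5 of 10 were called, where 15.7% of all genes were. There, 4 were higher (Csf1r, Il21r, Il7r and Csf3r, background 6.83%) and 1 was lower (Flt3, background 8.91%), with a median of 0.13 against 0.00 over all genes. The comparisons share arrays, so they are not independent of each other. As the receptors were chosen with earlier results of these data known, the shares called describe them and do not test the list.

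**Figure D1:**
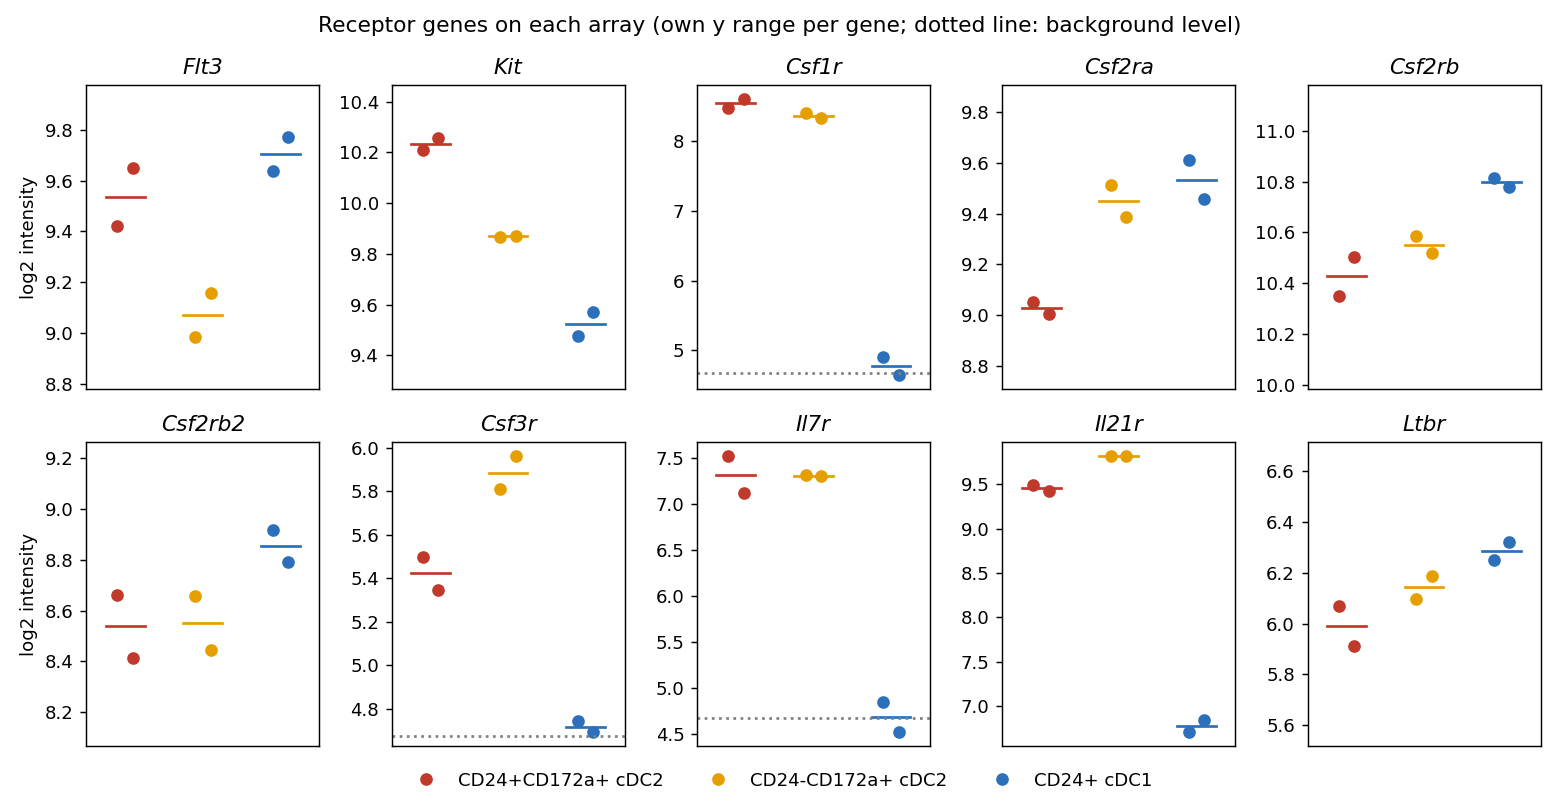
The log2 intensity of each receptor gene (y axis, with its own range for each gene) on each of the 6 arrays (points), by population (colours, with the population mean as a bar). The cDC1 arrays of Csf1r, Csf3r and Il7r lie at the dotted background level of 4.68, while the cDC2 arrays of these genes lie at 5.35 or above.

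**Figure D2:**
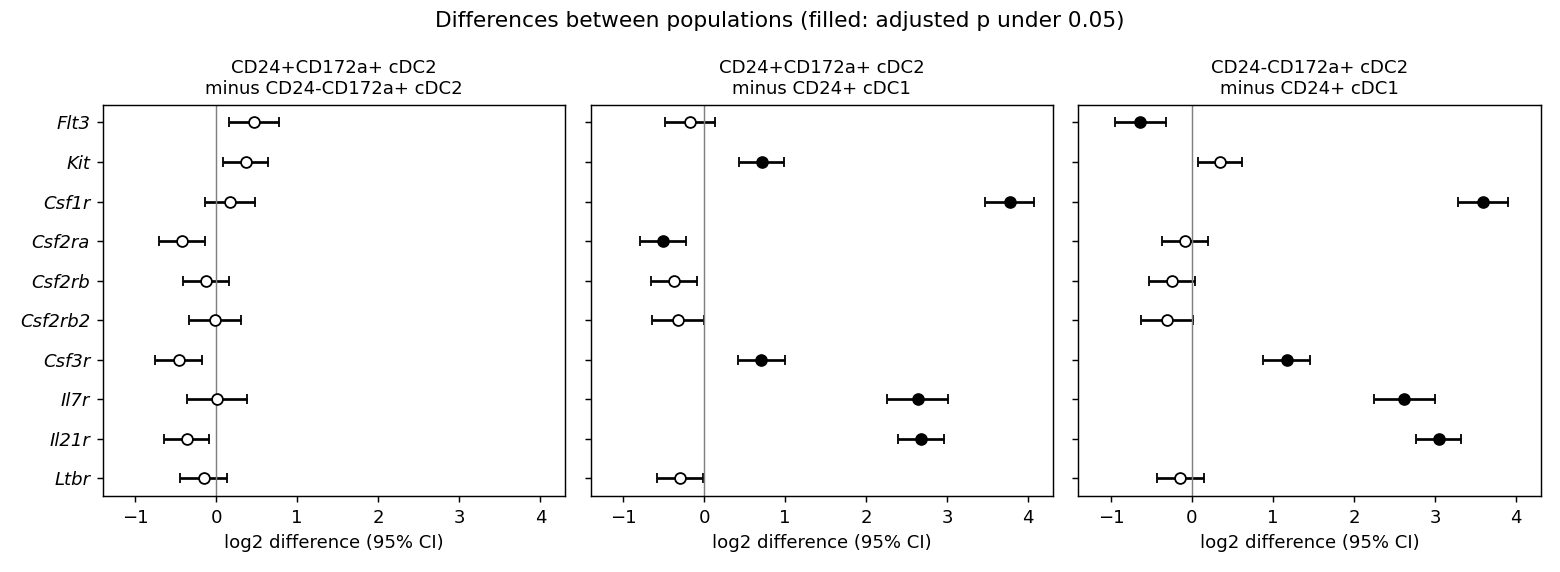
The difference in log2 intensity (x axis) of each receptor gene in the 3 comparisons (panels), with its 95% confidence interval from limma; filled points have an adjusted p under 0.05. In the left panel 0 of 10 points are filled, and in the panels against cDC1 the largest differences are those of Csf1r, Il7r and Il21r.

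The sequence just before the start site is shown for Il7r, Il21r and Csf3r, the genes called higher in both cDC2 populations than in cDC1 for which the promoter table had an entry (8 of the 10 receptors had one; Csf1r and Csf2rb did not). Each is the 250 bases before the annotated start, 5′ to 3′ on the gene's strand, from RefSeq, build GRCm38.p6. Capitals mark a match to AGGAAGT, read as its reverse complement, the core that ETS factors such as PU.1 bind:
Il7r, chr15:9529877-9530126, minus strand: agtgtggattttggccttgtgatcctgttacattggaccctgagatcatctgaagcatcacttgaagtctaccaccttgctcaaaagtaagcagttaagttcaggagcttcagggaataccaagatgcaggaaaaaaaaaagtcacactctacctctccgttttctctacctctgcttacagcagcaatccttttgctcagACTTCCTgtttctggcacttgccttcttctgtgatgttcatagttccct
Il21r, chr7:125603179-125603428, plus strand: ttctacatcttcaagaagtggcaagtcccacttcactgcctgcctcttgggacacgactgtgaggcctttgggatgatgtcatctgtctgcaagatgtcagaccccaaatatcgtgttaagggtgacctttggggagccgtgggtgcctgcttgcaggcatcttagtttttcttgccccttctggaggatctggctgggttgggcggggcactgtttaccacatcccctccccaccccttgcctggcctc
Csf3r, chr4:126024409-126024658, plus strand: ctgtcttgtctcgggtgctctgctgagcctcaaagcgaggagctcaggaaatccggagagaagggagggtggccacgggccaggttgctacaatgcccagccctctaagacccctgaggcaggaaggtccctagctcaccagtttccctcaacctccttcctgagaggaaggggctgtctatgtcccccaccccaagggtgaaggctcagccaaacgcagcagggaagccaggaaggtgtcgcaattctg
The match in Il7r spans bases 202 to 208 of the window, 49 to 43 bases before the start. It is the sole match to AGGAAGT among the 8 receptor windows on either strand, and 7.69% of 32851 promoter windows of this length held 1 or more. The composite element of ETS and IRF factors was in 0 of the 8 windows and in 2.3% of all. TTCNNNGAA, bound by STAT factors, was in Il7r (bases 109 to 117) and Csf2rb2 (bases 236 to 244) and in 7.02% of all. These are matches of letters, and the arrays do not measure binding.

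Flt3, the receptor for the cytokine that sustains the whole lineage, was at 9.42 and 9.65 on the CD24+CD172a+ cDC2 arrays, 8.98 and 9.16 on the CD24-CD172a+ cDC2 arrays, and 9.64 and 9.77 on the cDC1 arrays. Both CD24-CD172a+ arrays were below all others, while the ranges of CD24+CD172a+ cDC2 and cDC1 overlapped. CD24-CD172a+ cDC2 fell below cDC1 by 0.64 ± 0.14, which is 1.55-fold (adjusted p = 0.0106). The call was lost with cDC1 replicate 2 left out (-0.57, adjusted p = 0.079) and with CD24-CD172a+ replicate 1 left out (-0.55, adjusted p = 0.0699). CD24+CD172a+ cDC2 differed from CD24-CD172a+ cDC2 by 0.47 ± 0.14 (adjusted p = 0.161, 95% interval 0.15 to 0.78) and from cDC1 by -0.17 ± 0.14 (adjusted p = 0.554, -0.48 to 0.14). On a scale from the cDC1 mean (0%) to the CD24-CD172a+ mean (100%), CD24+CD172a+ cDC2 lay at 26.8% for Flt3. Plasmacytoid dendritic cells also carry FLT3. Their 8 measured markers summed on the linear scale to 745 to 790 in CD24+CD172a+ cDC2, 479 to 483 in CD24-CD172a+ cDC2 and 609 to 636 in cDC1, so their sum, like the Flt3 mean, was lowest in CD24-CD172a+ cDC2, while the sum was highest in CD24+CD172a+ cDC2 and the Flt3 mean in cDC1. Of the 8, 4 were higher and 0 lower in CD24+CD172a+ than in CD24-CD172a+ cDC2, 4 were higher and 2 lower in CD24+CD172a+ cDC2 than in cDC1, and 2 were higher and 3 lower in CD24-CD172a+ cDC2 than in cDC1. In the same order, 0.808%, 7.11% and 6.83% of all genes were higher and 0.652%, 6.52% and 8.91% lower. Under background were 0 of the 8 in CD24+CD172a+ cDC2, 1 in CD24-CD172a+ cDC2 and 2 in cDC1, and the part of these cells in the Flt3 level was not tested.

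Kit, the stem cell factor receptor, was at 10.21 and 10.26 on the CD24+CD172a+ cDC2 arrays, 9.87 and 9.87 on the CD24-CD172a+ cDC2 arrays, and 9.48 and 9.57 on the cDC1 arrays. The 3 populations did not overlap. CD24+CD172a+ cDC2 rose above cDC1 by 0.71 ± 0.12, or 1.64-fold (adjusted p = 0.00288), and the adjusted p stayed between 0.00446 and 0.0313 with any 1 array left out. CD24+CD172a+ cDC2 differed from CD24-CD172a+ cDC2 by 0.36 ± 0.12 (adjusted p = 0.212, interval 0.09 to 0.64). CD24-CD172a+ cDC2 differed from cDC1 by 0.35 ± 0.12 (adjusted p = 0.095, interval 0.07 to 0.62). Mast cells, basophils and progenitors carry much KIT. Of 9 markers of these cells measured, 0 were called by limma in any comparison. Of all genes, 1.46% were called between the cDC2 populations, and 13.6% and 15.7% in CD24+CD172a+ and CD24-CD172a+ cDC2 against cDC1. Under the background level were 7, 6 and 7 of the 9 markers in CD24+CD172a+ cDC2, CD24-CD172a+ cDC2 and cDC1. Their summed linear level was 159 to 166 in CD24+CD172a+ cDC2, 160 to 166 in CD24-CD172a+ cDC2 and 145 to 154 in cDC1. The mast cell and basophil markers Cpa3, Mcpt8, Ms4a2 and Fcer1a were at 2.66 to 3.83 in CD24+CD172a+ cDC2 and at 2.86 to 3.76 in cDC1. They are only some of the 9 markers, and the part of these cells in the Kit level was not tested.

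Csf1r, the M-CSF receptor, was at 8.47 and 8.61 on the CD24+CD172a+ cDC2 arrays, 8.40 and 8.33 on the CD24-CD172a+ cDC2 arrays, and 4.90 and 4.64 on the cDC1 arrays. Both cDC2 populations were high and close to each other, and the cDC1 arrays lay at background. The rise over cDC1 was 3.77 ± 0.14 in CD24+CD172a+ cDC2 (13.6-fold, adjusted p = 3.77e-08) and 3.59 ± 0.14 in CD24-CD172a+ cDC2 (12.1-fold, adjusted p = 5.52e-08). CD24+CD172a+ cDC2 differed from CD24-CD172a+ cDC2 by 0.17 ± 0.14 (adjusted p = 0.63, interval -0.13 to 0.48). Monocytes and macrophages depend on this receptor. Their 14 measured markers summed on the linear scale to 3917 to 4409 in CD24+CD172a+ cDC2, 6240 to 6444 in CD24-CD172a+ cDC2 and 5993 to 6232 in cDC1. Of the 14, 7 were lower and 0 higher in CD24+CD172a+ than in CD24-CD172a+ cDC2, 2 were higher and 4 lower in CD24+CD172a+ cDC2 than in cDC1, and 6 were higher and 2 lower in CD24-CD172a+ cDC2 than in cDC1. In the same order, 0.808%, 7.11% and 6.83% of all genes were higher and 0.652%, 6.52% and 8.91% lower. The sum was lowest in CD24+CD172a+ cDC2, where the Csf1r mean was highest, and the part of these cells in the Csf1r level was not tested.

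Csf2ra, the specific alpha chain for GM-CSF, was at 9.05 and 9.005 on the CD24+CD172a+ cDC2 arrays, 9.51 and 9.39 on the CD24-CD172a+ cDC2 arrays, and 9.61 and 9.46 on the cDC1 arrays. Both CD24+CD172a+ arrays were below the other 4, which overlapped. CD24+CD172a+ cDC2 fell below cDC1 by 0.51 ± 0.13, or 1.42-fold (adjusted p = 0.0256). This call was lost when any compared array was left out, with an adjusted p of 0.0977 and 0.131 without CD24+CD172a+ replicate 1 or 2, and of 0.177 and 0.0587 without cDC1 replicate 1 or 2. CD24+CD172a+ cDC2 differed from CD24-CD172a+ cDC2 by -0.42 ± 0.13 (adjusted p = 0.165, interval -0.71 to -0.13). CD24-CD172a+ cDC2 differed from cDC1 by -0.08 ± 0.13 (adjusted p = 0.769, interval -0.37 to 0.20).

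Csf2rb, the beta chain shared by GM-CSF, IL-3 and IL-5, was at 10.35 and 10.50 on the CD24+CD172a+ cDC2 arrays, 10.58 and 10.52 on the CD24-CD172a+ cDC2 arrays, and 10.81 and 10.78 on the cDC1 arrays. The cDC1 arrays were the highest and the CD24+CD172a+ arrays the lowest, with no overlap. Csf2rb2, the IL-3 beta chain, was at 8.66 and 8.41 on the CD24+CD172a+ cDC2 arrays, 8.66 and 8.44 on the CD24-CD172a+ cDC2 arrays, and 8.92 and 8.79 on the cDC1 arrays. Again both cDC1 arrays were the highest and the cDC2 populations overlapped. Neither gene was called in any comparison. Against cDC1, CD24+CD172a+ cDC2 differed by -0.37 ± 0.13 for Csf2rb (adjusted p = 0.0914, interval -0.65 to -0.09) and by -0.32 ± 0.14 for Csf2rb2 (adjusted p = 0.217, interval -0.64 to 0.0038). CD24-CD172a+ cDC2 differed from cDC1 by -0.25 ± 0.13 for Csf2rb (adjusted p = 0.265) and by -0.30 ± 0.14 for Csf2rb2 (adjusted p = 0.215). The differences of CD24+CD172a+ from CD24-CD172a+ cDC2 were -0.13 ± 0.13 and -0.01 ± 0.14 (adjusted p = 0.72 and 0.982). The genes are near-identical copies, and RNA of one may bind probes of the other, so the split between them is uncertain.

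Csf3r, the G-CSF receptor, was at 5.50 and 5.35 on the CD24+CD172a+ cDC2 arrays, 5.81 and 5.96 on the CD24-CD172a+ cDC2 arrays, and 4.74 and 4.69 on the cDC1 arrays. The populations did not overlap, with CD24-CD172a+ cDC2 on top and cDC1 at background. It rose over cDC1 by 0.71 ± 0.13 in CD24+CD172a+ cDC2 (1.63-fold, adjusted p = 0.00423) and by 1.17 ± 0.13 in CD24-CD172a+ cDC2 (2.25-fold, adjusted p = 0.000134). Without CD24+CD172a+ replicate 1 the adjusted p of the smaller rise was 0.0476, the highest of the fits with an array left out. CD24+CD172a+ cDC2 differed from CD24-CD172a+ cDC2 by -0.46 ± 0.13 (adjusted p = 0.138, interval -0.76 to -0.17). Neutrophils carry this receptor. Their 12 markers summed on the linear scale to 337 to 365 in CD24+CD172a+ cDC2, 234 to 245 in CD24-CD172a+ cDC2 and 228 to 240 in cDC1, with 8, 9 and 8 under background. Against cDC1, where Csf3r was called, 3 of the 12 were higher and 0 lower in CD24+CD172a+ cDC2 (S100a8, S100a9 and Mmp9), against 7.11% and 6.52% of all genes. In CD24-CD172a+ cDC2, 2 were higher than in cDC1 and 0 lower (Mmp9, and Mmp8, which was under background in both), against 6.83% and 8.91% of all genes. S100a8 and S100a9 were also higher in CD24+CD172a+ than in CD24-CD172a+ cDC2, by 1.92 and 1.88, and these markers were chosen for mention after their values were seen. Of the other markers, Ly6g was at 3.07 in CD24+CD172a+ cDC2, 3.01 in CD24-CD172a+ cDC2 and 2.64 in cDC1. Cxcr2 was at 3.24, 3.32 and 3.19 in the same order. All these values were under background, and both genes are only some of the 12, not chosen by a rule. The neutrophil sum was highest in CD24+CD172a+ cDC2 and the Csf3r mean in CD24-CD172a+ cDC2. The part of neutrophils in the Csf3r level was not tested.

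**Figure D3:**
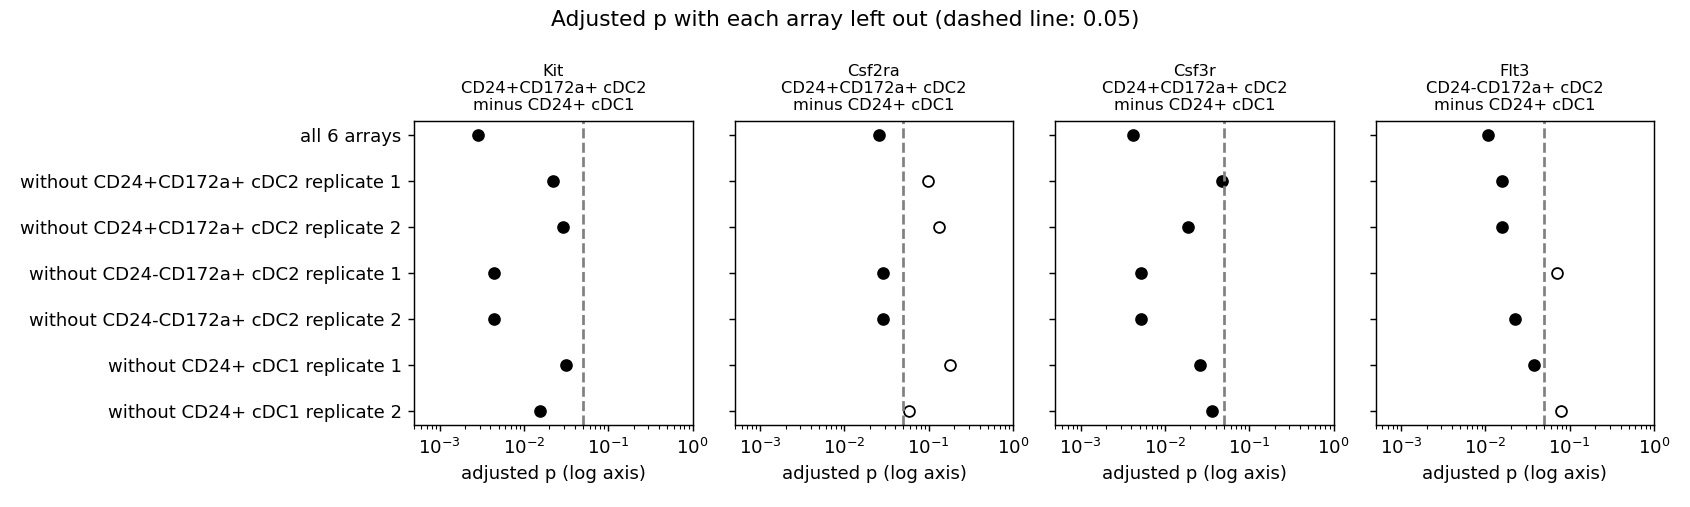
The adjusted p from limma (x axis, log scale) of the 4 smaller calls against cDC1 (panels), with all 6 arrays and with each array left out in turn (rows); the dashed line marks 0.05, and open points lie above it. Kit and Csf3r stay below 0.05 throughout, Csf2ra exceeds it in 4 fits and Flt3 in 2.

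Il7r, the receptor chain shared by IL-7 and TSLP, was at 7.52 and 7.11 on the CD24+CD172a+ cDC2 arrays, 7.31 and 7.30 on the CD24-CD172a+ cDC2 arrays, and 4.84 and 4.52 on the cDC1 arrays. The cDC2 populations overlapped, and both were far above the cDC1 arrays. It rose over cDC1 by 2.63 ± 0.17 in CD24+CD172a+ cDC2 (6.21-fold, adjusted p = 1.98e-06) and by 2.62 ± 0.17 in CD24-CD172a+ cDC2 (6.16-fold, adjusted p = 1.97e-06). Between CD24+CD172a+ and CD24-CD172a+ cDC2 the difference was 0.01 ± 0.17 (adjusted p = 0.984, interval -0.36 to 0.39), and its sign depended on the normalisation. Crlf2, the partner of IL7R for TSLP, was at 6.97 and 6.95 on the CD24+CD172a+ cDC2 arrays, 7.01 and 6.96 on the CD24-CD172a+ cDC2 arrays, and 7.03 and 6.77 on the cDC1 arrays. It was not called in any comparison (adjusted p = 0.776 to 0.964), and was named as the partner of Il7r, after its values were seen.

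Il21r, the specific chain of the IL-21 receptor, was at 9.49 and 9.42 on the CD24+CD172a+ cDC2 arrays, 9.82 and 9.82 on the CD24-CD172a+ cDC2 arrays, and 6.70 and 6.85 on the cDC1 arrays. The populations did not overlap, and the cDC1 arrays were far below the rest yet above background. It rose over cDC1 by 2.68 ± 0.13 in CD24+CD172a+ cDC2 (6.40-fold, adjusted p = 2.22e-07) and by 3.04 ± 0.13 in CD24-CD172a+ cDC2 (8.24-fold, adjusted p = 8.77e-08). CD24+CD172a+ cDC2 differed from CD24-CD172a+ cDC2 by -0.36 ± 0.13 (adjusted p = 0.22, interval -0.65 to -0.08), and lay 88.0% of the way from cDC1 to CD24-CD172a+ cDC2. T, NK and innate lymphoid cells also carry Il7r and Il21r. Of 10 markers of these cells, 8 were under background in each population, and their linear sum was 190 to 192 in CD24+CD172a+ cDC2, 203 to 206 in CD24-CD172a+ cDC2 and 183 to 192 in cDC1. Of the 10, 0 were called between the cDC2 populations, 1 (Il2ra) was higher in CD24+CD172a+ cDC2 than in cDC1 and 2 (Il2ra and Cd3d) were higher in CD24-CD172a+ cDC2 than in cDC1. The shares of all genes were 1.46% called, 7.11% higher and 6.83% higher in the same order. Il2ra was under background in every population. The 8 B cell markers measured had a linear sum of 246 to 267 in CD24+CD172a+ cDC2. It was 284 to 346 in CD24-CD172a+ cDC2 and 262 to 295 in cDC1, and each cDC2 range overlapped that of cDC1. Under background were 4 of the 8 in each population. Against cDC1, 3 were higher and 1 lower in CD24+CD172a+ cDC2, while CD24-CD172a+ cDC2 had 2 higher and 1 lower. Between the cDC2 populations, 1 was lower in CD24+CD172a+ cDC2 and 0 were higher. The part of all these cells in the Il7r and Il21r levels was not tested.

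Ltbr, the lymphotoxin beta receptor, was at 6.07 and 5.91 on the CD24+CD172a+ cDC2 arrays, 6.10 and 6.19 on the CD24-CD172a+ cDC2 arrays, and 6.25 and 6.32 on the cDC1 arrays. The populations did not overlap, yet the steps between them were small. No difference was called: CD24+CD172a+ cDC2 differed from CD24-CD172a+ cDC2 by -0.15 ± 0.13 (adjusted p = 0.653, interval -0.44 to 0.13) and from cDC1 by -0.30 ± 0.13 (adjusted p = 0.192, interval -0.58 to -0.01). CD24-CD172a+ cDC2 differed from cDC1 by -0.14 ± 0.13 (adjusted p = 0.568, interval -0.43 to 0.14).

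Among genes of the non-canonical NF-kappaB pathway, to which LTBR signals, those called were higher in cDC2. The list does not separate genes that drive the pathway from genes that restrain it, and pathway activity was not measured. Of 6 measured, 4 were higher and 0 lower in CD24+CD172a+ cDC2 than in cDC1, against 7.11% and 6.52% of all genes (median 0.55, against -0.03 over all genes). They were the NF-kappaB subunit Relb (0.81 ± 0.15), the ubiquitin ligases Birc2 (0.80 ± 0.17) and Birc3 (0.52 ± 0.13), and the adaptor Traf2 (0.59 ± 0.16). In CD24-CD172a+ cDC2, 3 were higher and 0 lower than in cDC1, against 6.83% and 8.91% of all genes (median 0.47, against 0.00). They were Birc2 (1.30 ± 0.17), Relb (0.75 ± 0.15) and Traf2 (0.52 ± 0.16). Of these 7 calls, that of Birc2 in CD24-CD172a+ cDC2 was kept in all 4 fits that left out a compared array. Relb kept its call in 2 of 4 such fits in CD24+CD172a+ cDC2 and in 3 of 4 in CD24-CD172a+ cDC2, Birc2 in CD24+CD172a+ cDC2 in 2, Birc3 in 0, and Traf2 in 1 in each. None of the 6 was called by limma between CD24+CD172a+ and CD24-CD172a+ cDC2 (0 of 6, against 1.46% of all genes). The smallest p belonged to Birc2 (-0.50 ± 0.17, adjusted p = 0.219) and Nfkb2 (-0.14 ± 0.13, adjusted p = 0.665).

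Of the 14 ligands of these receptors, 4 were higher and 2 lower in CD24+CD172a+ cDC2 than in cDC1, against 7.11% and 6.52% of all genes (median 0.03, against -0.03 over all genes). In CD24-CD172a+ cDC2, 5 were higher and 1 lower than in cDC1, against 6.83% and 8.91% of all genes (median 0.06, against 0.00). In these comparisons 7 and 6 of the 14, in the same order, were under background in both populations. Between the cDC2 populations it was 8. Ltb, the membrane-bound partner of lymphotoxin and a ligand of LTBR, was at 7.77 and 8.13 on the CD24+CD172a+ cDC2 arrays, 7.86 and 7.53 on the CD24-CD172a+ cDC2 arrays, and 6.001 and 5.56 on the cDC1 arrays. Both cDC2 populations were above cDC1, by 2.17 ± 0.19 for CD24+CD172a+ cDC2 and 1.91 ± 0.19 for CD24-CD172a+ cDC2 (adjusted p = 2.04e-05 and 5.38e-05).

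Tnfsf14, which encodes LIGHT, another LTBR ligand, was at 5.88 and 5.98 on the CD24+CD172a+ cDC2 arrays, 6.56 and 7.26 on the CD24-CD172a+ cDC2 arrays, and 4.92 and 5.28 on the cDC1 arrays. Its rise over cDC1 was 1.81 ± 0.21 in CD24-CD172a+ cDC2 (adjusted p = 0.000184), and 0.83 ± 0.21 in CD24+CD172a+ cDC2 (adjusted p = 0.0249), where 1 of the 4 fits without a compared array kept the call. Between CD24+CD172a+ and CD24-CD172a+ cDC2, Tnfsf14 differed by -0.98 ± 0.21 and was not called by limma (adjusted p = 0.0553, interval -1.45 to -0.51). Csf1, the M-CSF gene, was at 5.85 and 5.55 on the CD24+CD172a+ cDC2 arrays, 5.54 and 5.68 on the CD24-CD172a+ cDC2 arrays, and 4.57 and 4.79 on the cDC1 arrays. It rose over cDC1 by 1.02 ± 0.15 in CD24+CD172a+ cDC2 and by 0.93 ± 0.15 in CD24-CD172a+ cDC2 (adjusted p = 0.000942 and 0.00164), so Csf1 and Csf1r RNA were both higher in cDC2 than in cDC1. Csf1 lost both calls under treat against a 1.5-fold change (adjusted p = 0.18 and 0.416). Its cDC1 mean of 4.683 lay at the background level, with 1 of the arrays under it, so these differences may be lower bounds.

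Tslp ran the other way to its receptor chain Il7r. It was at 2.78 and 2.89 on the CD24+CD172a+ cDC2 arrays, 3.46 and 3.49 on the CD24-CD172a+ cDC2 arrays, and 4.91 and 5.10 on the cDC1 arrays, where alone it was above background. It fell by 2.17 ± 0.13 in CD24+CD172a+ cDC2, and by 1.53 ± 0.13 in CD24-CD172a+ cDC2, against cDC1 (adjusted p = 1.38e-06 and 1.82e-05). Measured against the background level, it was at least 1.25-fold lower in each cDC2 population. Between CD24+CD172a+ and CD24-CD172a+ cDC2, 0 ligands were higher and 2 lower, against 0.808% and 0.652% of all genes (median -0.08, against -0.01 over all genes). The 2 were Tslp, under background in both, and Lta, which forms lymphotoxin with Ltb. Lta was at 4.45 and 4.45 on the CD24+CD172a+ cDC2 arrays, 5.05 and 5.13 on the CD24-CD172a+ cDC2 arrays, and 4.45 and 4.44 on the cDC1 arrays, so CD24-CD172a+ cDC2 alone exceeded background. It was at least 1.33-fold lower in CD24+CD172a+ than in CD24-CD172a+ cDC2 (adjusted p = 0.0375). Leaving out any array ended both calls between the cDC2 populations. Lta was also called higher in CD24-CD172a+ cDC2 than in cDC1, by 0.64 ± 0.12 (adjusted p = 0.00464 from limma). Against the background level this rise was at least 1.33-fold, and its call was not followed through the alternative fits.

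The remaining called ligands, outside the naming rule and named after their values were seen, were Flt3l and Csf3. Flt3l, the FLT3 ligand, was at 6.195 and 6.44 on the CD24+CD172a+ cDC2 arrays, 6.40 and 6.30 on the CD24-CD172a+ cDC2 arrays, and 5.83 and 5.77 on the cDC1 arrays. It rose over cDC1 by 0.52 ± 0.14 in CD24+CD172a+ cDC2 and by 0.55 ± 0.14 in CD24-CD172a+ cDC2 (adjusted p = 0.0277 and 0.019), calls that 1 of 4 fits without a compared array kept in each. Csf3, the G-CSF gene, was at 4.26 and 4.14 in CD24+CD172a+ cDC2, under background, and at 4.71 and 4.67 in cDC1, close to it. It was at least 1.01-fold lower in CD24+CD172a+ cDC2 (adjusted p = 0.0344), a call kept in 0 of those 4 fits.

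**Figure D4:**
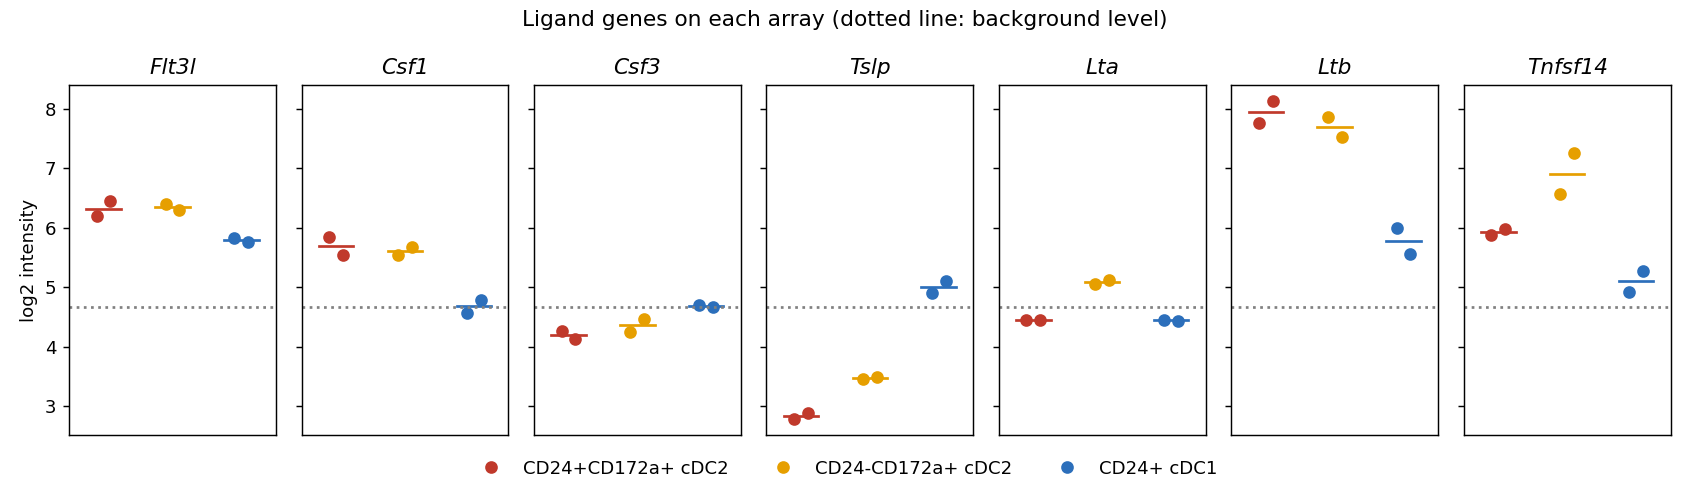
The log2 intensity (y axis) of 7 ligand genes on each of the 6 arrays (points), by population (colours, with the population mean as a bar); the dotted line is the background level of 4.68. Ltb, Tnfsf14, Csf1 and Flt3l are higher on the cDC2 arrays than on the cDC1 arrays, and Tslp exceeds background on the cDC1 arrays alone.

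Il2rg, the gene of the common gamma chain that pairs with IL7R and IL21R, was not among the genes measured. Under background in both populations of each comparison were 8 of the 21 partner chains and related cytokine receptors measured. Of the 21, 7 were higher and 1 lower in CD24+CD172a+ cDC2 than in cDC1, against 7.11% and 6.52% of all genes (median 0.06, against -0.03). The largest were Il4ra, which binds IL-4 (1.24 ± 0.14), Il13ra1, its partner for IL-13 (1.07 ± 0.19), and Il6st, the gp130 chain of the IL-6 family (1.07 ± 0.17). Il2ra was also among them but lay under background in both populations. In CD24-CD172a+ cDC2, 6 were higher and 1 lower than in cDC1, against 6.83% and 8.91% of all genes (median 0.24, against 0.00). There, Il4ra (1.37 ± 0.14), Il13ra1 (1.08 ± 0.19), the IL-10 receptor chain Il10rb (0.94 ± 0.14) and the IL-12 receptor chain Il12rb2 (0.86 ± 0.13) were the largest. Limma called 0 of the 21 between CD24+CD172a+ and CD24-CD172a+ cDC2, against 1.46% of all genes. The smallest p belonged to Il6st (0.72 ± 0.17, adjusted p = 0.0781) and the IL-9 receptor Il9r (0.52, adjusted p = 0.139). Il6st was called with trend and robust variance (adjusted p = 0.0277) and without genes under the median (adjusted p = 0.0458).

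Of 24 genes of signalling next to the receptors, 9 were higher and 4 lower in CD24+CD172a+ cDC2 than in cDC1, against 7.11% and 6.52% of all genes (median 0.12, against -0.03). The ubiquitin ligase Cblb, which restrains receptor signalling, was lower (-1.50 ± 0.12), as was the kinase Tyk2 (-0.91 ± 0.14), and Pik3r5, a subunit of PI3-kinase gamma (1.10 ± 0.14), and the phosphatase Ptpn6 (1.03 ± 0.15) were higher. In CD24-CD172a+ cDC2, 8 were higher and 2 lower than in cDC1, against 6.83% and 8.91% of all genes (median 0.28, against 0.00). They included Pik3r5 (1.23 ± 0.14), Ptpn6 (0.86 ± 0.15) and the adaptor Grb2 (0.73 ± 0.15), whose call 2 of the 4 fits without a compared array kept, and, lower, Cblb (-0.997 ± 0.12). Between CD24+CD172a+ and CD24-CD172a+ cDC2, 1 of 24 was called, against 1.46% of all genes (median -0.10, against -0.01). It was Socs2, a STAT5 target that damps cytokine signalling, at 5.30 and 5.41 in CD24+CD172a+ cDC2 and at 6.34 and 6.38 in CD24-CD172a+ cDC2. It fell by 1.004 ± 0.14 (adjusted p = 0.00973) in CD24+CD172a+ cDC2, and the call was kept in 0 of the 4 fits without a compared array.

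The genes whose pattern over the 6 arrays was most like that of a called receptor were found by the root-mean-square distance of log2 values centred on each gene's mean, among 9586 genes above the median level. For Csf1r the nearest was Ceacam1 (0.13), followed by Mcemp1 (0.16) and Carmil1 (0.19). For Il7r it was S100a6 (0.10), then Lrp8 and Ifitm6 (0.14 each), and for Il21r it was Myo1e (0.10), then Fabp5 and Thbs1 (0.11 each). Rtn1 (0.06) was nearest to Csf3r, Rbl2 (0.03) to Kit, Slc26a6 (0.04) to Csf2ra and Sgo1 (0.04) to Flt3. The next nearest were Ddhd1 and Zfp831 (0.07 each) for Csf3r, Pogz (0.03) and Chd3 (0.04) for Kit, Eml6 (0.05) and Tgfbi (0.06) for Csf2ra, and Nob1 and Uggt1 (0.06 each) for Flt3. The 6 arrays come from 3 populations, so a distance compares few independent points.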

How the data were processed

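RNA of 3 sorted splenic populations was measured on 2 Affymetrix arrays each. The labels' protocols give column extraction and the WT Pico kit. Per the submitters' processing notes, the authors used Affymetrix Expression Console and RMA; versions and genome build are not given in the sources used here. The deposited intensity values are linear, as their range shows, and their log2 was taken here. Scan dates and signal over background were not used here.

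Of 28853 probe sets, the 21789 with 1 gene symbol in the platform annotation were used (1621 had several, 5443 none). For the 999 genes with several, the probe set with the highest mean was kept. Arrays were grouped by their titles. The 19938 genes were fitted with limma 3.58.1 in R 4.3.3 (lmFit, eBayes, all 6 arrays, no covariate), with Benjamini-Hochberg adjustment within each comparison and a threshold of 0.05. There were 3 residual and 7.31 prior degrees of freedom. No dim gene was left out. The number of arrays limits the precision. The scripts were tested on simulated data.

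All 10 receptors are named whatever their values. Each pathway list gives up to 4 called genes per comparison by size, or else the 2 with the smallest p. Each called receptor gives the 3 genes of nearest pattern, without predicted genes and antigen receptor segments. The receptors and all lists were chosen with earlier results of these data known. Alternatives were filters on dim genes, other probe set rules, normalisations and variance models, log2(value + 16), array weights, a replicate block, treat against a 1.5-fold change, a fit of only the compared arrays, and each array left out in turn. Figures used Python 3.11.15 and matplotlib 3.10.9.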

Additional observations from a re-analysis of the deposited data

How the results depend on the processing

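The calls of Csf1r, Il7r and Il21r in both comparisons with cDC1, and of Csf3r in CD24-CD172a+ cDC2, were kept under all 19 alternatives. Over the 10 receptors, 547 of 570 alternative values kept direction and side of the threshold, 11 lost a call, 6 gained one and 6 turned sign. The alternative values are not all independent. Leaving out an array of the population not compared gives the same result as the fit of only the compared arrays. Other probe set rules cannot change the difference of a receptor with a single probe set. Treat against a 1.5-fold change called 3 receptors (2718 genes became 715) in CD24+CD172a+ cDC2 against cDC1, ending the calls of Kit, Csf2ra and Csf3r. It called 728 genes in CD24-CD172a+ cDC2 against cDC1, and ended the call of Flt3, and 8 between the cDC2 populations. Quantile normalisation again ended the call of Csf2ra. Leaving out genes under the median, log2(value + 16) and trend with robust variance each called Csf2rb in CD24+CD172a+ cDC2 and Kit in CD24-CD172a+ cDC2, against cDC1. Between the cDC2 populations, where 291 genes were called, the count was 437 without genes under the median, 464 with trend and robust variance, and 187 with only the 2 groups. It was 20 and 44 without CD24+CD172a+ replicate 1 or 2, 98 and 76 without CD24-CD172a+ replicate 1 or 2, and 187 without either cDC1 array. The count of receptors called there was 0 in each case. With 1 array left out, 1781 to 2769 genes and 5 to 6 receptors were called in CD24+CD172a+ cDC2 against cDC1 (1781 and 1810 without CD24+CD172a+ replicate 1 or 2, 1805 without cDC1 replicate 1), and 1922 to 2839 genes and 4 to 5 receptors in CD24-CD172a+ cDC2 against cDC1 (1922 without cDC1 replicate 1). A population left with 1 array takes its spread from the others.

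Signs turned in uncalled differences near 0, and the cause was not tested. Between CD24+CD172a+ and CD24-CD172a+ cDC2, Csf2rb2 came to 3.77e-06 with median centring, and ran from -0.136 to 0.112 with 1 array left out (0.112 with CD24+CD172a+ replicate 2 left out, 0.0947 with CD24-CD172a+ replicate 1 left out). Il7r came to -0.0548 with quantile normalisation again and -0.0794 with cyclic loess, and with 1 array left out ran from -0.192 (CD24+CD172a+ replicate 1 left out) to 0.218. With 1 array left out, Flt3l ran from -0.155 to 0.0934 (CD24+CD172a+ replicate 1 left out; 0.0164 for CD24-CD172a+ replicate 1), and Crlf2 from -0.0505 to 0.00457 (CD24-CD172a+ replicate 1 left out). Against cDC1, in the same fits, Crlf2 ran from -0.0662 to 0.191 in CD24+CD172a+ cDC2, and from -0.0432 to 0.214 in CD24-CD172a+ cDC2, the lowest with cDC1 replicate 2 left out.

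Deviations of same-numbered arrays correlated at 0.08, 0.08 and 0.02, so no strong shared shift was seen. Whether equal replicate numbers in the titles mark a shared mouse or sort cannot be told from this. With the replicate block, 0, 6 and 5 receptors and 411, 2918 and 3323 genes were called, in the order CD24+CD172a+ with CD24-CD172a+ cDC2, CD24+CD172a+ cDC2 with cDC1, and CD24-CD172a+ cDC2 with cDC1. Il6st became called between the cDC2 populations (0.72, adjusted p = 0.0239 from limma), and no call of a receptor or of another named pathway gene changed.

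With 2 arrays a population and signal over background not used here, small differences and levels near background are least certain.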
